A study of Mus musculus with 6 samples.

Results

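Genes of the nuclear pore and of nuclear transport were followed in mouse spleen with and without exposure to perfluorooctane sulfonate (PFOS), a persistent fluorinated surfactant. Members were chosen by name. Probe sets whose only gene symbol begins with Nup and a digit were taken as pore proteins, and those beginning with Ipo and a digit, Xpo, Kpna or Kpnb as transport receptors. This gave 39 genes with 102 probe sets, of 18193 genes and 45101 probe sets on the array. Of the genes, 19 (46 probe sets) were pore proteins and 20 (56 probe sets) were transport receptors. A further 3 probe sets that also name another gene were left out.

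Spleens came from 6 Balb/c mice of 6 to 8 weeks, and each gave RNA for 1 Affymetrix Mouse430_2 array. The 3 control mice were untreated, and no vehicle is named for them. The 3 exposed mice received 10 mg PFOS per kg body weight each day for 3 weeks by stomach tube. All 6 mice are labelled female, but the X-inactivation transcript Xist lay between 5.62 and 5.86 on the log2 scale and the Y-linked Eif2s3y between 9.62 and 9.91 on every array. Both groups went against that label in the same way. Markers of spleen were present, among them Ms4a1 of B cells at 12.29 and Vcam1 of red pulp macrophages at 12.27 in control.

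The nuclear pore is a large ring of nucleoporins through which all traffic between nucleus and cytoplasm passes. Small molecules diffuse through it, while most proteins and RNAs are carried by receptors of the karyopherin family. Importins pick up cargo in the cytoplasm and release it when they meet the small GTPase Ran with bound GTP in the nucleus, and exportins bind cargo together with Ran-GTP and release it outside. Spleen of the mouse holds resting lymphocytes and macrophages as well as dividing red cell precursors, and dividing cells take the pore apart and build it again.

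Values are RMA log2 values, so a difference of 1 is 2-fold, and they are relative to the whole distribution of an array. Array medians lay between 6.16 and 6.18, and the correlation over probe sets ran from 0.9985 to 0.9991 for arrays of the same group and from 0.969 to 0.970 across groups. A probe set had to reach a mean of 5.62 over the 6 arrays, and the probe set with the highest mean stood for its gene, which left 13101 genes. All 39 members passed, and the probe set that stood for each was above this floor in both groups. By that probe set, no member passed through 1 group alone. A gene was called at a Benjamini-Hochberg adjusted p under 0.05 from limma over all genes, and ± after a change gives the standard error (SE) of the limma fit. The arrays are labelled as biological replicates, and p-values measure only the spread between these 6 samples. Of all genes tested, 26.0% were called lower and 40.6% higher in PFOS, and the median change was 0.05. The bacterial RNAs added before labelling (labelling spikes, 24 probe sets) were at 6.65 in control and 6.11 in PFOS, close to the array medians. Those added at hybridization (18 probe sets) were at 9.997 in control and 9.995 in PFOS. Why only the labelling spikes differed was not tested. Scaling the arrays on the labelling spikes would raise every change by the same amount, to a median of 0.59 over all genes. Such scaling moves no gene relative to another, and the directions below are those of the deposited values. In whole spleen, fewer cells of a type and less RNA per cell cannot be told apart.

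Most pore genes were lower in PFOS spleens, and most by a small amount. Of the 19 pore genes, 15 were called lower (78.9%, against 26.0% of all genes) and 1 higher (5.26%, against 40.6%) in the deposited values, while none was lower and 17 were higher when arrays were scaled on the labelling spikes. Under that scaling 92.1% of all genes were called higher and 5.52% lower, so 17 of 19 is about the share of all genes. Their median change was -0.20, with a range from -0.54 to 0.17. For 16 of them the highest PFOS array was still under the lowest control array, as for 27.8% of all genes, and for 1 the lowest PFOS array was over the highest control array, as for 43.2%. Relative to the median of all genes, 18 of the 19 lay lower, in the deposited values and with quantile normalization. The other scalings add a constant to each array, so they cannot change this count. It was 17 with probe sets averaged. Without probe sets marked _s_at, _x_at or _a_at, which left fewer pore genes, it was 15.

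Transport receptors were more mixed. Of the 20, 10 were called lower and 3 higher in the deposited values, against 26.0% and 40.6% of all genes. Their median change was -0.12. With scaling on the labelling spikes 2 were lower, against 5.52% of all genes, and 18 higher, again about the 92.1% called higher there. The PFOS arrays lay wholly below the control arrays for 11 receptors, as for 27.8% of all genes, and wholly above for 3, as for 43.2%. The groups overlapped for 6 receptors, and for 3792 of all 13101 genes. Relative to the median of all genes, 15 of the 20 lay lower. The span of the receptors was wider than that of the pore genes, from -0.89 to 0.12, because Kpna2 and Xpo7 stood far from the rest.

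Averaged over members, the pore genes were at 9.0132, 8.9904 and 8.9965 on the control arrays and at 8.7916, 8.8033 and 8.7888 on the PFOS arrays. The receptors were at 9.1428, 9.1177 and 9.1162 in control and at 8.9711, 8.9459 and 8.9503 in PFOS. The mean of the pore genes minus that of the receptors was -0.13, -0.13 and -0.12 in control and -0.18, -0.14 and -0.16 in PFOS, so the groups did not overlap in it. The pore median change minus the receptor median change was -0.08, and lay between -0.04 and -0.10 in all settings tried. The difference between the classes was not tested.

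**Figure D1:**
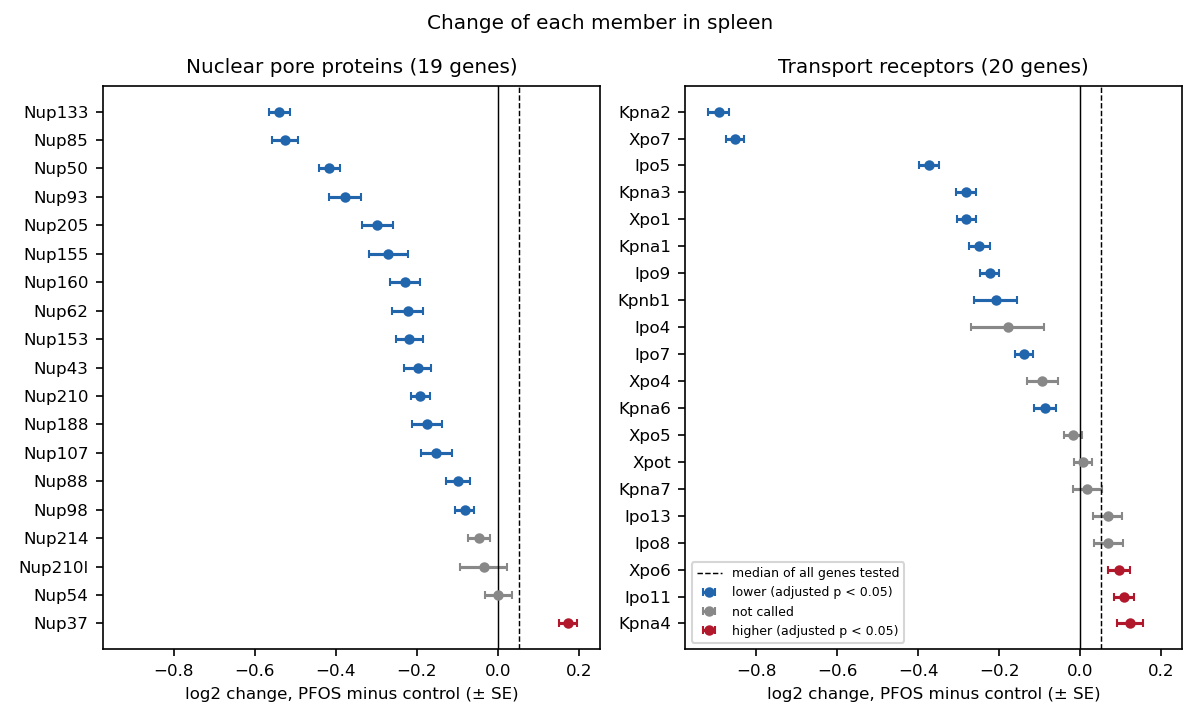
Log2 change (PFOS minus control, horizontal axis) with SE of each of the 19 pore genes (left) and 20 transport receptors (right), 3 arrays a group, coloured by call in the deposited values. The dashed line is the median of all genes tested (0.05). With scaling on the labelling spikes, only Kpna2, Xpo7 and Nup133 stay below 0. Nup37 is the called pore gene to the right of the line, and Kpna2 (-0.89) and Xpo7 (-0.85) lie far to the left of the other receptors.

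**Figure D2:**
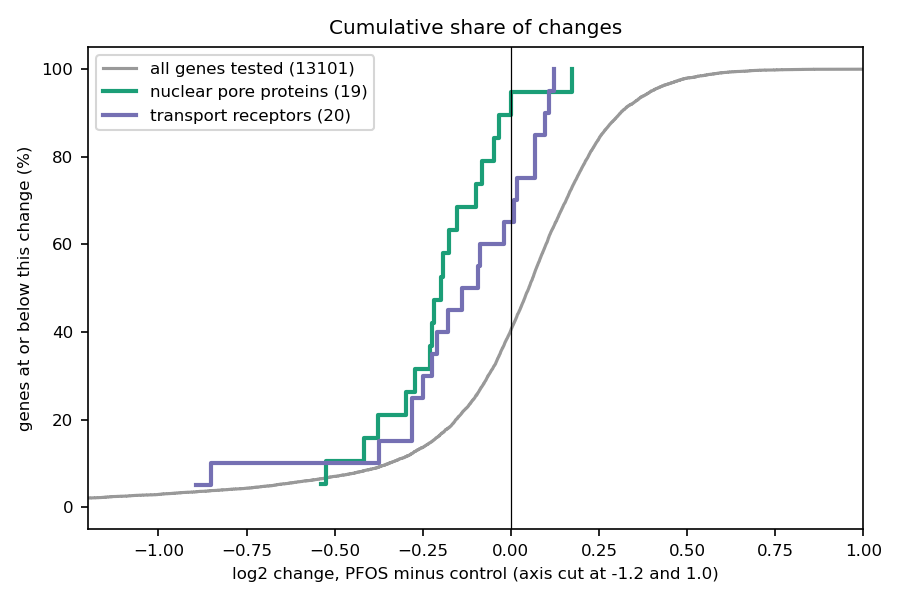
Cumulative share of genes (vertical axis, percent) at or below a given log2 change (horizontal axis, cut at both ends) for all 13101 genes tested, the 19 pore genes and the 20 receptors. Both classes lie to the left of all genes over most of the range, with medians of -0.20 and -0.12 against 0.05 in the deposited values. Scaling on the labelling spikes moves all 3 curves to the right together, and both class medians above 0.

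The Y complex forms the outer rings of the pore and seeds its assembly after mitosis, when it also sits on kinetochores. All 6 subunits with a Nup symbol were called, 5 lower and 1 higher, in the deposited values, against 0 lower and 4 higher with scaling on the labelling spikes. This count and each later count by role or list stand beside the shares of all genes. Those were 26.0% lower and 40.6% higher in the deposited values, and 5.52% and 92.1% with that scaling. Nup133 was at 8.87, 8.85 and 8.84 on the control arrays and at 8.34, 8.29 and 8.30 on the PFOS arrays. This was the largest change of a pore gene, at -0.54 ± 0.03 or 1.45-fold lower (limma adjusted p = 1.78e-06). The groups stood apart by many times their own spread. Nup85 was at 9.89, 9.95 and 9.92 in control and at 9.35, 9.44 and 9.40 in PFOS. It fell by almost the same amount, with a change of -0.53 ± 0.03 (limma adjusted p = 7.31e-06). Nup160, Nup43 and Nup107 fell less, by 0.23, 0.20 and 0.15, and Nup107 lost its call with quantile normalization (-0.11, limma adjusted p = 0.0674). The subunits under other names, Seh1l (0.03, limma adjusted p = 0.336) and Sec13 (-0.02, limma adjusted p = 0.503), were not called.

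Nup37, which binds Nup160 at the rim of the complex, was the exception. It was at 8.08, 8.08 and 8.09 in control and at 8.24, 8.27 and 8.26 in PFOS. Its change was 0.17 ± 0.02, or 1.13-fold higher (limma adjusted p = 3.71e-04), and every PFOS array was above every control array. Only 1 probe set measured Nup37, so its direction has no second reading on the array. With scaling on ribosomal protein genes the change of Nup37 was 0.10 (limma adjusted p = 0.00828).

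The bases before the start of Nup133 and Nup37, the members of the Y complex at either end, are shown from RefSeq (GRCm38.p6), 150 bases each and 5′ to 3′. Nup133 is on the minus strand at chr8:123949266-123949415, and its capitals mark both copies of the cyclic AMP response element TGACGTCA. Nup37 is on the plus strand at chr10:88146842-88146991, and its capitals mark the ETS motif CCGGAAG, the cell cycle element TTTGAA or its reverse complement, and a CCAAT box.
Nup133: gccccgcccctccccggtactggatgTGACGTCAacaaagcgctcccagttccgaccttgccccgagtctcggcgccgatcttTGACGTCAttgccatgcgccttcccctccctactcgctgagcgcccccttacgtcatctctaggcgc
Nup37: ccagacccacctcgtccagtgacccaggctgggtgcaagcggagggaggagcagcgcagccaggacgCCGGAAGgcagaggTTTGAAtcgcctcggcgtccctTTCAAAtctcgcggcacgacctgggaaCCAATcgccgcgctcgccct

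The inner ring, which anchors the central channel to the membrane, was lower in all 4 members measured in the deposited values, and higher in all 4 with scaling on the labelling spikes. Nup93 was at 8.996, 8.959 and 8.950 in control and at 8.67, 8.56 and 8.54 in PFOS, a change of -0.38 ± 0.04 (limma adjusted p = 9.73e-05). Nup205 was at 8.92, 8.90 and 8.90 in control and at 8.68, 8.62 and 8.53 in PFOS, a change of -0.30 ± 0.04 (limma adjusted p = 3.42e-04). Averaging the probe sets of Nup205 ended that call (-0.06, limma adjusted p = 0.0758). Nup155 was at 8.19, 8.20 and 8.21 in control and at 8.04, 7.87 and 7.87 in PFOS, a change of -0.27 ± 0.05 (limma adjusted p = 1.71e-03). The PFOS arrays of these genes were more spread than the control arrays, with PFOS replicate 1 the highest for each, yet still below every control array. Nup188, the paralogue of Nup205, fell by 0.18.

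Of the nuclear basket, Nup50 and Nup153 were both lower, and both higher with scaling on the labelling spikes. Nup50, which helps importin alpha release its cargo, was at 9.39, 9.34 and 9.38 in control and at 8.95, 8.94 and 8.98 in PFOS. The change was -0.42 ± 0.03, or 1.33-fold lower (limma adjusted p = 8.01e-06), with no overlap between groups. Nup153, which docks importins at the basket, fell by 0.22. The 150 bases before the start of Nup50, on the plus strand at chr15:84923278-84923427 (GRCm38.p6, RefSeq), hold the NRF1 palindrome, GCGCA followed directly by its reverse complement, and an inverted CCAAT box, marked by capitals, and are shown for the motif that recurred among the members.
Nup50: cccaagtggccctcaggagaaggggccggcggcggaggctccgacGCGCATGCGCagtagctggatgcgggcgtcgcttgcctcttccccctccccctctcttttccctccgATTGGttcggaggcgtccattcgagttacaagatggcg

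Genes of the channel, the membrane ring and the cytoplasmic face had medians of -0.08, -0.11 and -0.07 in the deposited values, and of 0.45, 0.42 and 0.46 with scaling on the labelling spikes. Nup62, whose phenylalanine-glycine repeats line the channel, went from 11.14 ± 0.04 (SD, n = 3) to 10.91 ± 0.06. That is a change of -0.22 (limma adjusted p = 1.27e-03). Its partner Nup54 differed by 0.0014 (limma adjusted p = 0.974), and its arrays overlapped. The other 3 Nup54 probe sets above the floor differed by -0.04 to -0.11, and without probe sets marked _s_at, _x_at or _a_at the gene was called lower (-0.11, limma adjusted p = 0.0404). Nup98, which lines the channel too, changed by -0.08 (limma adjusted p = 0.0166), but by 0.07 when its probe sets were averaged, and its call was lost with quantile normalization (-0.03, limma adjusted p = 0.275). The membrane-spanning Nup210 fell by 0.19, while its paralogue Nup210l, at a level of 7.02 in control, differed by -0.035 with overlapping arrays.

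On the cytoplasmic face, Nup88 and Nup214 form the docking site of exportin 1. Nup88 changed by -0.10 (limma adjusted p = 0.0222). Leaving out control array 1 or 3, or exposed array 2 or 3, ended this call (limma adjusted p from 0.056 to 0.0749), as did quantile normalization (-0.06, limma adjusted p = 0.104). Nup214 differed by -0.05 (limma adjusted p = 0.159) and was not called, although its PFOS arrays were all below its control arrays. Its other probe set, at a level of 5.88, was lower by more (-0.28, limma adjusted p = 0.00166 over all probe sets). Averaging both gave a call (-0.16, limma adjusted p = 8.28e-04), as did scaling on ribosomal protein genes (-0.12, limma adjusted p = 0.00442).

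**Figure D3:**
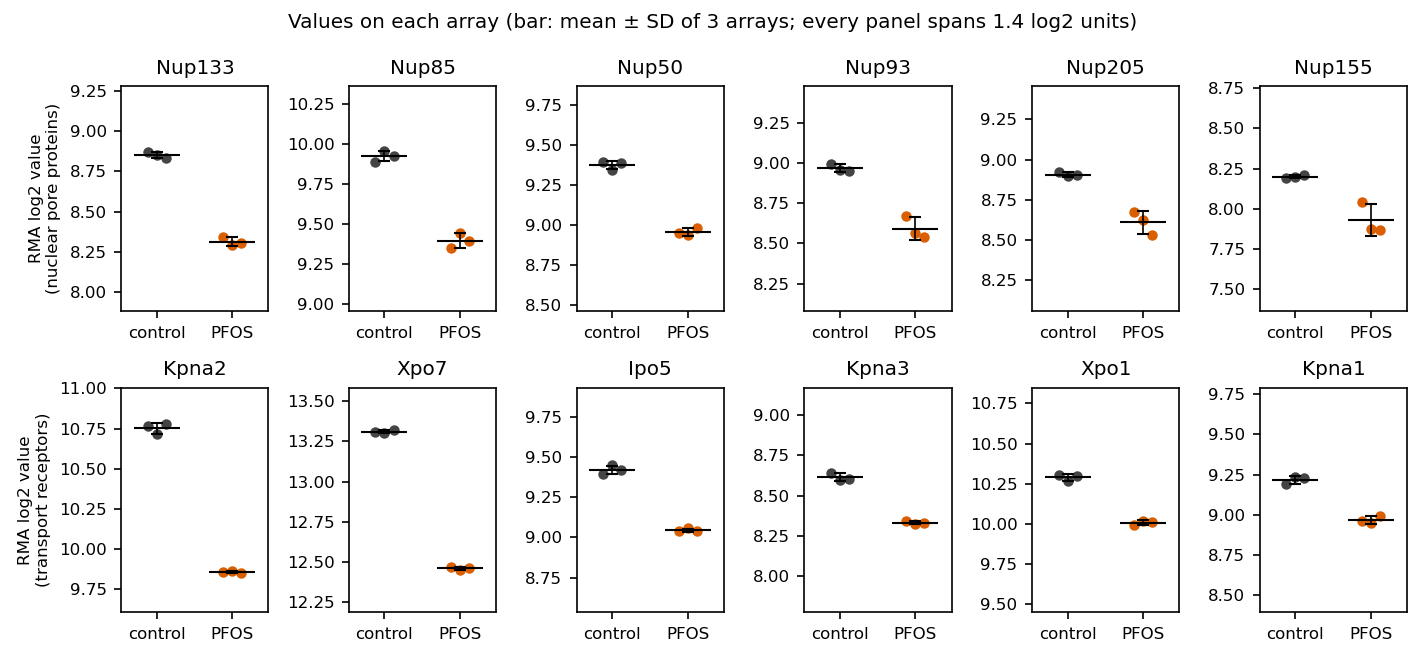
RMA log2 value (vertical axis) on each of the 3 control and 3 PFOS arrays for the 6 pore genes (top) and 6 receptors (bottom) with the largest change, each panel spanning the same range. Bars are means with SD. The groups are apart in each panel, by most in Kpna2 and Xpo7, and PFOS replicate 1 lies highest for Nup93, Nup205 and Nup155.

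Among the receptors, the importin alpha adaptors recognise the classical nuclear localisation signal of cargo and ride on importin beta. Of 6 measured, 4 were called lower (66.7%, against 26.0% of all genes) and 1 higher (16.7%, against 40.6%). With scaling on the labelling spikes 1 was lower and 5 higher. Kpna2, the adaptor most closely tied to dividing cells, was at 10.77, 10.71 and 10.78 in control and at 9.86, 9.87 and 9.85 in PFOS. Its change was -0.89 ± 0.03, or 1.86-fold lower (limma adjusted p = 1.36e-07). By the probe sets that stood for their genes, this was the largest of all 39 members. Xpo7 was lower by more with probe sets averaged (-1.26), and without those marked _s_at, _x_at or _a_at (-1.43). The average includes an Xpo7 probe set that was under the floor in PFOS. Kpna2 stayed lower by 0.36 with scaling on the labelling spikes. Only 1 probe set measured it.

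Kpna3 was at 8.64, 8.59 and 8.60 in control and at 8.34, 8.32 and 8.33 in PFOS, a change of -0.28 ± 0.02 (limma adjusted p = 4.15e-05). Kpna1 was at 9.19, 9.23 and 9.23 in control and at 8.96, 8.95 and 8.99 in PFOS, a change of -0.25 ± 0.03 (limma adjusted p = 9.91e-05). Neither gene had overlapping groups. Kpna6 changed by -0.09 (limma adjusted p = 0.0248). Leaving out control array 1 or 3, or exposed array 1 or 2, ended its call (limma adjusted p from 0.0537 to 0.0827), as did quantile normalization (limma adjusted p = 0.0986) and averaging its probe sets (0.0123, limma adjusted p = 0.625).

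Kpna4, the closest relative of Kpna3, went the other way. It was at 10.12, 10.10 and 10.02 in control and at 10.22, 10.20 and 10.18 in PFOS, so that each PFOS array was above each control array. The change was 0.12 ± 0.03 (limma adjusted p = 0.012), a call lost with scaling on ribosomal protein genes (0.05, limma adjusted p = 0.188) and with averaging of its probe sets (0.16, limma adjusted p = 0.0986). Kpna7, the importin alpha of the oocyte and early embryo, lay near the floor at 5.91 in control and 5.93 in PFOS, with overlapping arrays.

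The 150 bases before Kpna2 and Kpna4, the adaptors with the largest fall and with the rise, are given from RefSeq (GRCm38.p6). Both genes are on the minus strand, Kpna2 at chr11:106999526-106999675 and Kpna4 at chr3:69127093-69127242. Capitals mark a CCAAT box in either orientation and, in Kpna2, the reverse complement of the cell cycle element TTTGAA, which lies 30 to 35 bases before the start. Kpna4 has the CCAAT box in each orientation and lacks those letters. Over the members, TTTGAA was in 3 of 23 promoters of genes called lower (13.0%) and in 4 of 13 others (30.8%). Overlapping starts of Nup37 were counted separately among these 4. A link of the element with the changes was not tested.
Kpna2: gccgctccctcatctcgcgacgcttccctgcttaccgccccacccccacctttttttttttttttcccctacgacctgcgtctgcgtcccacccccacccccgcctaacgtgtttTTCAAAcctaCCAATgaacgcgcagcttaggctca
Kpna4: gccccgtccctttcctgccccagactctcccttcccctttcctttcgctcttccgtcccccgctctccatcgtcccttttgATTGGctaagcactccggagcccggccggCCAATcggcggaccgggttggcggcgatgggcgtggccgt

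Importin beta 1 and its relatives bind cargo or adaptors and carry them through the channel. Of these 8, 4 were called lower and 1 higher, and all 8 higher with scaling on the labelling spikes. Ipo5, an importer of ribosomal proteins and histones, was at 9.40, 9.45 and 9.42 in control and at 9.04, 9.06 and 9.04 in PFOS. Its change was -0.37 ± 0.02, or 1.30-fold lower (limma adjusted p = 9.75e-06). Ipo9, a carrier of histones, fell by 0.22, and Ipo7, a carrier of ribosomal proteins and histone H1, by 0.14.

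Kpnb1, importin beta 1 itself, was at 11.20, 11.17 and 11.15 in control and at 11.09, 10.91 and 10.89 in PFOS. PFOS replicate 1 stood between the other PFOS arrays and control. The change was -0.21 ± 0.05 (limma adjusted p = 0.0105), and the other 3 probe sets of the gene were lower too. Ipo4 showed a like pattern, at 8.74, 8.55 and 8.53 in control and at 8.62, 8.31 and 8.36 in PFOS. Replicate 1 was high in both groups, so the groups overlapped, and the change of -0.18 ± 0.09 was not called (limma adjusted p = 0.116). Without PFOS replicate 1 it was -0.27 (limma adjusted p = 0.0109).

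Ipo11, which imports a ubiquitin-conjugating enzyme, rose from 8.42 ± 0.02 (SD, n = 3) to 8.53 ± 0.01. That change of 0.11 had a limma adjusted p of 0.00516, and its other probe set was higher by 0.29. With scaling on ribosomal protein genes the call was lost (0.04, limma adjusted p = 0.266). Ipo8 and Ipo13 differed by 0.07 each, with overlapping arrays and no call. Ipo8 was called higher with quantile normalization (0.09, limma adjusted p = 0.0363). The other Ipo8 probe sets above the floor differed by -0.08 and -0.0092, and neither was called.

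The exportins held the other large change. In the deposited values 2 of 6 were called lower (33.3%, near the 26.0% of all genes) and 1 higher (16.7%, against 40.6%). With scaling on the labelling spikes 1 was lower and 5 higher. Xpo7, an exportin that red cell precursors carry at high level as their nucleus condenses, was at 13.31, 13.30 and 13.32 in control and at 12.47, 12.45 and 12.46 in PFOS. The change was -0.85 ± 0.02, or 1.80-fold lower (limma adjusted p = 7.32e-08), and the arrays of each group lay within 0.02 of one another. Xpo7 also kept its direction with scaling on the labelling spikes, at -0.32. The gene had 2 other probe sets above the floor. They were at mean levels of 9.83 and 5.99 and changed by more, -1.43 ± 0.04 and -1.50 ± 0.08 (limma adjusted p = 2.45e-07 and 6.61e-06 over all probe sets). The probe set at 5.99 went from 6.74 in control to 5.24 in PFOS, under the floor. It passed the filter through control alone, which fixes its direction.

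Xpo1, the main exportin for proteins with a leucine-rich signal, was at 10.30, 10.27 and 10.30 in control and at 9.99, 10.02 and 10.01 in PFOS. Its change was -0.28 ± 0.02, or 1.22-fold lower (limma adjusted p = 3.65e-05). Xpo6, which exports actin, rose by 0.10 (limma adjusted p = 0.0145). That call was lost without control replicate 2 (limma adjusted p = 0.0517) and with scaling on ribosomal protein genes (0.02, limma adjusted p = 0.444).

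The exportins of small RNAs, Xpo5 and Xpot, differed little in the probe sets that stood for them. Xpo5, which exports precursors of microRNAs, was at 7.93 ± 0.003 (SD, n = 3) in control and at 7.91 ± 0.02 in PFOS. The transfer RNA exportin Xpot was at 9.26 ± 0.01 and 9.26 ± 0.01. Neither was called (limma adjusted p = 0.496 and 0.782). The changes were -0.02 and 0.0074, each with an SE of 0.02. Xpo5 was called with scaling on ribosomal protein genes (-0.09, limma adjusted p = 0.0121). Xpot was called lower with that scaling (-0.07, limma adjusted p = 0.0426) and higher with averaging of its probe sets (0.06, limma adjusted p = 0.0423). Another Xpot probe set, at a level of 9.13, was higher by 0.15 (limma adjusted p = 0.0107 over all probe sets). Xpo4 differed by -0.09 (limma adjusted p = 0.064) with overlapping arrays in the probe set that stood for it. Its other probe sets were called lower, 1 above the floor (-0.26, limma adjusted p = 0.00126) and 1 under it (-0.34, limma adjusted p = 3.47e-04), and averaging those above the floor gave a call (-0.18, limma adjusted p = 0.00302).

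Other probe sets of the same genes gave a partly separate reading, since they share the arrays but not all the probes. In a fit over every probe set with 1 symbol and no filter, 53 of the 102 member probe sets were called lower and 12 higher, where 21.2% and 29.6% of all such probe sets were. Of 63 probe sets that did not stand for their gene, 16 had the opposite sign, 8 above and 8 under the floor. Of the 20 called members with more than 1 probe set above the floor, 17 had all of them in the same direction. The exceptions were Nup205, Nup98 and Kpna6. Nup205 had a probe set at a level of 6.44 that was higher by 0.17, Nup98 had one at 7.31 that was higher by 0.22, and Kpna6 had one at 6.31 that was higher by 0.11. For Nup62, 3 further probe sets above the floor changed by -0.36 to -0.40, more than the one that stood for the gene, and a probe set under the floor was higher by 0.19. Averaging the probe sets above the floor moved the changes of 5 members by over 1.5 times with no call lost: Nup62 to -0.34, Kpna1 to -0.39, Ipo5 to -0.21, Ipo7 to -0.07 and Ipo11 to 0.20. Without probe sets marked _s_at, _x_at or _a_at, Xpo7 was at -1.43, Nup62 at -0.40 and Ipo9 at -0.12, each still called.

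**Figure D4:**
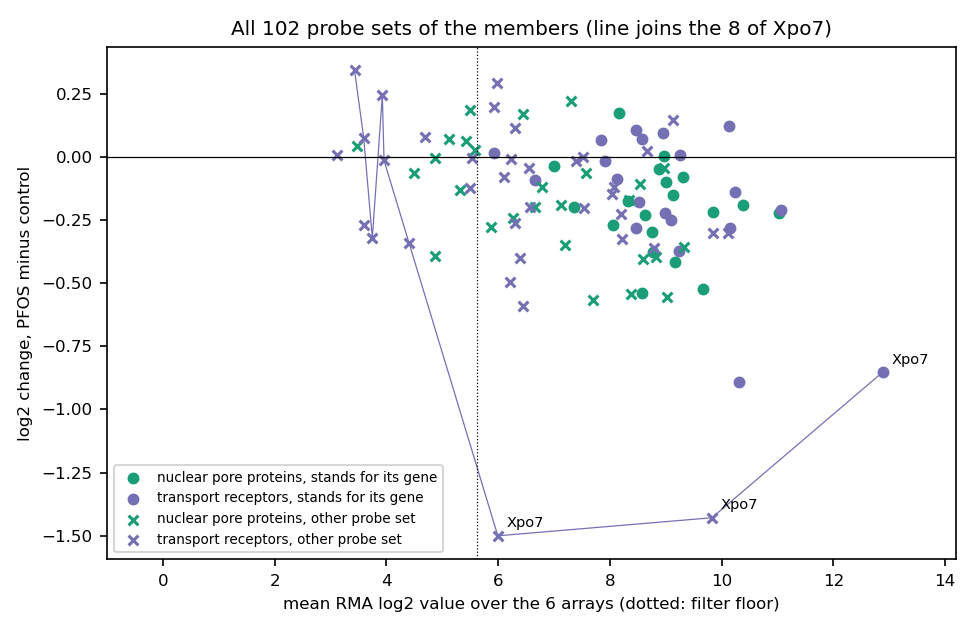
Log2 change (vertical axis) against the mean RMA log2 value over the 6 arrays (horizontal axis) for all 102 member probe sets, pore in green and receptors in purple. Filled circles stand for their gene and crosses are other probe sets; the dotted line is the floor of 5.62. The 3 Xpo7 probe sets above the floor lie at -0.85 to -1.50, while the 5 under it scatter about 0. The Xpo7 probe set at -1.50 was under the floor in PFOS and passed through control alone.

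The genes around the members were read from lists of pathway partners. Genes listed under the Ran cycle, which gives transport its direction, were lower in all 8 measured (median -0.45) in the deposited values. With scaling on the labelling spikes 2 were lower and 5 higher (median 0.08). Rcc2 (-0.28), whose part in the cycle was not checked, is 1 of the 8. RanGAP1 (Rangap1), which discharges Ran in the cytoplasm, changed by -0.73 ± 0.03 in the probe set that stood for it, and Rcc1, which charges it on chromatin, by -0.66 ± 0.03. Ran itself changed by -0.46 ± 0.02, and Rangrf by -0.48 ± 0.04. The change of Rangap1 was -0.43 with its probe sets averaged, and without those marked _s_at, _x_at or _a_at it was gone (-0.0078, limma adjusted p = 0.893). With scaling on the labelling spikes, Ran (0.07) and Rangrf (0.05) turned. Pore proteins under other names were lower in 7 of 11 and higher in 1 (median -0.15), against 1 lower and 10 higher with that scaling. Among them the membrane protein Tmem33 changed by -0.67 ± 0.03, Nupl1, the partner of Nup62 and Nup54, by -0.36 ± 0.02 (-0.14 with its probe sets averaged), and the pore membrane proteins Pom121 and Ndc1 by -0.31 ± 0.02 and -0.25 ± 0.03.

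Karyopherins and adaptors under other names were not lower as a group, with 2 lower, 3 higher and 5 not called of 10 (median 0.04), and all 10 higher with scaling on the labelling spikes. The 60S subunit export adaptor Nmd3 rose by 0.28 ± 0.05 and transportin 1 (Tnpo1) by 0.27 ± 0.03, though averaging the probe sets of Tnpo1 gave -0.0016 with no call. Tnpo2 changed by -0.28 ± 0.07 and Ranbp6, whose arrays overlapped, by -0.25 ± 0.09 (limma adjusted p = 0.0488, and 0.0608 with no filter on low values). Of 17 mRNA export genes, 7 were lower (41.2%, against 26.0% of all genes) and 3 higher (17.6%, against 40.6%), with a median of -0.05. With scaling on the labelling spikes 0 were lower and 15 higher. The adaptor Alyref changed by -0.53 ± 0.03, Eny2 by -0.47 ± 0.03, Nxt1 by -0.27 ± 0.03 and Thoc2 by -0.25 ± 0.03 (with probe sets averaged, Eny2 by -0.26 and Thoc2 by -0.16). Eny2 changed sign, to 0.08 with no call, when probe sets marked _s_at, _x_at or _a_at were left out.

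Of 12 genes of the nuclear lamina and envelope, 7 were lower (58.3%, against 26.0% of all genes) and 4 higher (33.3%, against 40.6%). Their median was -0.11. With scaling on the labelling spikes 3 were lower and 8 higher. Lamin B1 (Lmnb1) changed by -0.75 ± 0.07, the lamin B receptor Lbr by -0.67 ± 0.03 and the lamina-associated Tmpo by -0.47 ± 0.03. The probe set that stood for the A-type lamin Lmna changed by -1.51 ± 0.03, but without probe sets marked _s_at, _x_at or _a_at the gene was higher by 0.12 (limma adjusted p = 0.013). No list was tested as a set.

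**Figure D5:**
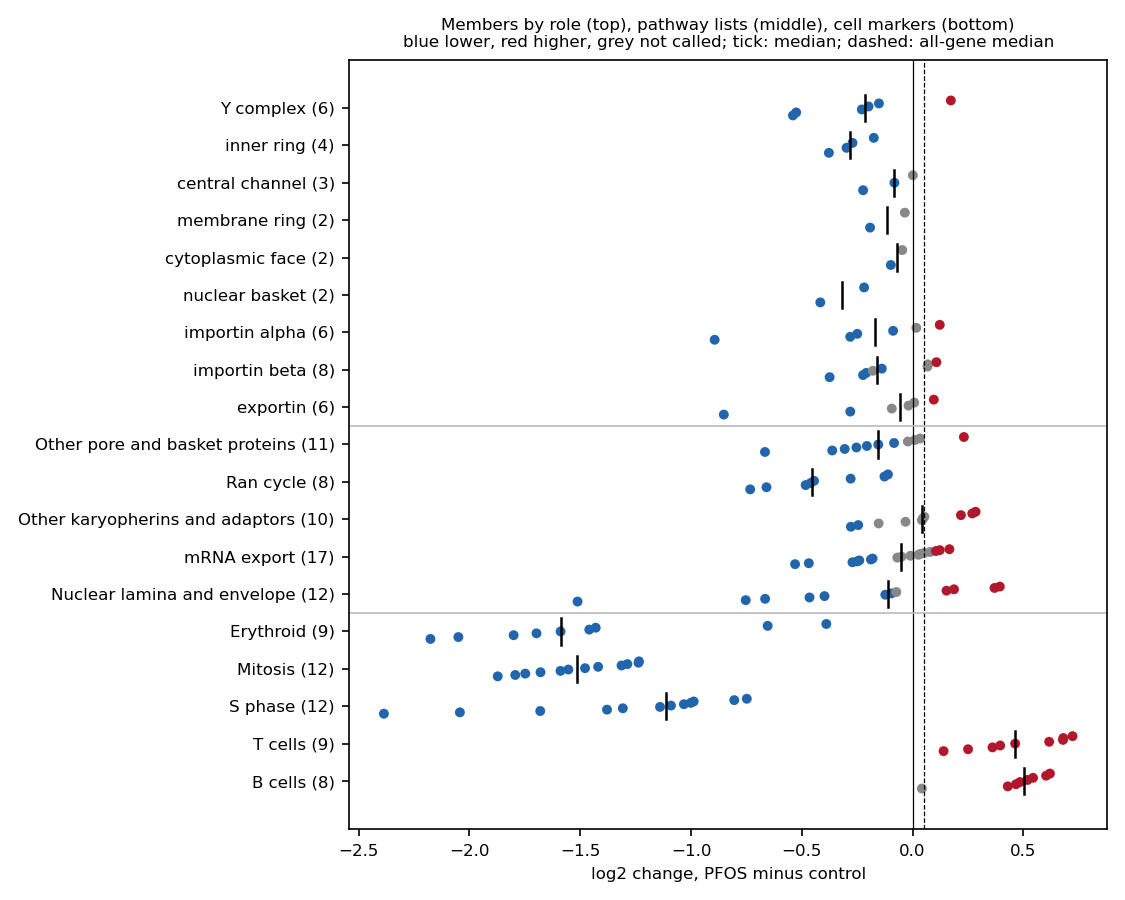
Log2 change (horizontal axis, PFOS minus control) of each measured gene in the deposited values, by role of the members (top), in pathway lists (middle) and in cell markers (bottom), with the number of genes in brackets. Points are genes, coloured by call, and ticks are medians. The inner ring, membrane ring, cytoplasmic face, basket and Ran cycle have no gene to the right of 0. The precursor, mitosis and S phase markers have none either. The medians of the precursor (-1.59), mitosis (-1.52) and S phase (-1.12) markers lie further left than any member. With scaling on the labelling spikes the medians of all 9 roles are above 0.

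Markers of other cells moved with these changes. All 9 measured markers of red cell precursors were lower (median -1.59), and their summed level on the linear scale went from 36454 to 37153 in control to 17071 to 17244 in PFOS. All 12 measured mitosis markers were lower (median -1.52), with a sum of 28412 to 28500 in control and 10132 to 10217 in PFOS. All 12 S phase markers were lower (median -1.12), with sums of 30402 to 30881 and 13413 to 13678. All of these markers stayed above the floor of 5.62 in PFOS, where the lowest was Aurkb at 6.63. With scaling on the labelling spikes, all of the mitosis and S phase markers and 8 of the 9 precursor markers were still called lower, and Alas2 was called higher.

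T cell markers were higher in 9 of 9 (median 0.46), with sums of 5429 to 5494 in control and 8109 to 8214 in PFOS. B cell markers were higher in 7 of 8 (median 0.50), with sums of 13532 to 13655 and 18925 to 18996. All 11 measured liver markers were lower, with sums of 5892 to 5934 in control and 468 to 498 in PFOS. Of these 11, 8 lay under the floor in PFOS and so passed the filter through control alone, which fixes their direction. Markers of red pulp macrophages were higher in 5 of 7 (median 0.33), with sums of 11232 to 11438 and 15384 to 15481. Markers of pancreas were lower in 4 of 4 (median -0.55), with sums of 951 to 960 and 479 to 534, and 1 of them stayed called with scaling on the labelling spikes. The pore genes summed to 12130 to 12176 in control and 10350 to 10476 in PFOS, and the receptors to 23009 to 23275 and 16736 to 17145. Such sums weigh genes by their level. Xpo7, at 13.31 in control and 12.46 in PFOS, had the highest level of the receptors and weighs most in their sum. The part of the marked cells in the member changes was not tested.

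The promoters of the members were read for short motifs chosen after their changes were known. RefSeq (GRCm38.p6) gave 36 promoters for 31 of the 39 members, some of them overlapping starts of 1 gene, and the 250 bases before each start were searched on both strands. Promoters of members were richer in G and C than all 32851 promoters, with a median of 64.4% against 52.4%. The NRF1 palindrome was in 4 of 36 member promoters, those of Nup107, Nup50, Nup62 and Xpo5, or 11.1%, against 0.782% of all promoters. The CCAAT box was in 19 (52.8%, against 33.8%), and the ETS motif CCGGAAG in 6 (16.7%, against 6.91%). Overlapping starts of Nup37 count separately for the CCAAT box, the ETS motif and TTTGAA.

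The other motifs were each in 7 or fewer. The cell cycle element TTTGAA was in 7 (19.4%, against 16.0%), an E2F-like TTTNNCGC in 2 (5.56%, against 4.28%), and a GATA motif, AGATAA or TGATAA, in 2 (5.56%, against 16.6%). The cyclic AMP response element TGACGTCA, added on sight of the Nup133 promoter, was in 2 (5.56%, against 1.55%), those of Nup133 and Nup214. No promoter entry was found for Xpo7, Nup85, Nup43, Nup210l, Kpna1, Kpna3, Kpna6 and Xpo4, so these counts leave them out.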

How the data were processed

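Total RNA of 6 mouse spleens was hybridised to Affymetrix Mouse430_2 arrays. Per the submitters' processing notes, the authors deposited log2 values normalized by RMA (no version named). Present or absent calls were not made, since scanner output was not analysed here. Of 45101 probe sets, 34945 had 1 gene symbol in GEO's platform annotation, 932 several and 9160 none, and 64 were array controls. limma 3.58.1 (lmFit, eBayes, two-sided) compared 3 PFOS with 3 control arrays over 13101 genes, with Benjamini-Hochberg adjustment, after a floor at the 40th percentile of mean value. The script was tested on simulated data. RMA makes arrays alike in distribution, so a shift of all genes together cannot be seen in its values. The number of arrays limits the precision. Members, gene lists and tests were chosen with earlier results of these data known. Every member was named, with full values for the 6 of each class with the largest change; from each pathway list up to 4 genes were named. Alternatives changed the filter, the scaling, the probe set rule, the variance prior, the array weights, the threshold, the replicate block and the arrays used.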

Additional observations from a re-analysis of the deposited data

How the results depend on the processing

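Scaling decided the sign of most member changes. Adding 0.53 to each difference, as the labelling spikes ask, moved the median of all genes from 0.05 to 0.59, the pore median to 0.34 and the receptor median to 0.42. Then 0 pore genes were lower and 17 higher, and 2 receptors (Kpna2 and Xpo7) were lower and 18 higher; 94.3% of 12788 called genes were higher, against 61.0% of 8730 in the deposited values and 43.1% with scaling on ribosomal protein genes. Relative to the median of all genes, the pore median (-0.25) and receptor median (-0.17) were the same under each constant scaling. With the spikes, these changed sign: Nup85 0.0090, Nup50 0.12, Nup93 0.16, Nup205 0.24, Nup155 0.26, Nup160 0.31, Nup62 0.31, Nup153 0.32, Nup43 0.34, Nup210 0.34, Nup188 0.36, Nup107 0.38, Nup88 0.44, Nup98 0.45, Nup214 0.49, Nup210l 0.50, Ipo5 0.16, Kpna3 0.25, Xpo1 0.25, Kpna1 0.28, Ipo9 0.31, Kpnb1 0.33, Ipo4 0.36, Ipo7 0.40, Xpo4 0.44, Kpna6 0.45, Xpo5 0.52, Ndc1 0.28, Pom121 0.23, Nupl1 0.17, Ran 0.0746, Rangrf 0.0517, Tnpo2 0.26, Ranbp6 0.29, Nxt1 0.26, Alyref 0.0039, Thoc2 0.29, Eny2 0.066 and Tmpo 0.0691. With ribosomal scaling the pore median was -0.27, the receptor median -0.19, 0 receptors were higher and Xpot was at -0.065. Quantile normalization gave medians of -0.17 and -0.10 and 12 pore genes and 9 receptors lower, with Nup107, Nup88, Nup98 and Kpna6 no longer called. Ipo8 gained a call there (0.09). The stricter filter kept 37 members, with a receptor median of -0.16 and a class difference of -0.0398. Averaging probe sets gave 2 pore genes higher, a pore median of -0.18 and a difference of -0.0585, ended the calls of Nup205 (-0.0644) and Kpna4, and turned Nup98 (0.07), Kpna6 (0.0123) and Tnpo1 (-0.0016). Without probe sets marked _s_at, _x_at or _a_at, 34 members were left, the difference was -0.10, Rangap1 lost its call (-0.0078), and Nup54 (-0.11, now called), Eny2 (0.0849) and Lmna (0.12) turned. At an adjusted p under 0.01, 1 receptor was higher. The cause of these moves was not tested.

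Leaving out 1 array at a time gave 7960 to 8503 called genes, 14 to 15 pore genes lower, 9 to 10 receptors lower and 2 to 3 higher, a pore median of -0.21 to -0.19, a receptor median of -0.14 to -0.0945 and a difference of -0.10 to -0.06. Same-numbered arrays deviated together only in part (correlations 0.32, 0.14 and 0.097; 4 of 6 arrays correlated best with their own number), so the numbers were not used as pairs. With a replicate block, 9050 genes were called, with 15 pore genes lower and 1 higher, and 12 receptors lower and 4 higher; Ipo4, Xpo4 and Ipo8 gained calls (limma adjusted p = 0.00536, 0.037 and 0.0405).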
